A study of Rattus norvegicus with 6 samples.

Results

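Gfap-negative astrocytes are here nuclei with transcripts of astrocyte genes and none counted of Gfap, the intermediate filament protein of fibrous and reactive astrocytes. They were chosen by their counts of unique molecular identifiers (UMIs, where 1 UMI is 1 RNA molecule caught) among nuclei of the rat nucleus accumbens, in the ventral striatum. A member had at least 500 detected genes, at most 5% mitochondrial UMIs, at least 3 UMIs over Aqp4, Gja1, Gli3, Rfx4 and Acsbg1, and no UMI of Gfap. It had at most 1 UMI of Gad1 and Gad2 (GABA neurons), none of Mog and Opalin (oligodendrocytes), Pdgfra (their precursors) or Csf1r (microglia), and at most 4 over the ependymal genes Foxj1, Dnah11, Spag17 and Cfap43. The rule found 3059 nuclei among 64260 barcodes, or 4.97% of the 61609 nuclei that passed the limits on genes and mitochondrial UMIs. They made up 80.2% of the 3816 astrocytes, and the other 757 had at least 1 Gfap UMI.

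All rats were Sprague-Dawley, 90 to 120 days old, and all had self-administered heroin, so that no group without heroin entered the comparison. The schedule ran for 7 days at 1 response per infusion (FR1) and 4 days at 3 responses (FR3), with a progressive ratio test on day 12 and FR3 again on days 13 and 14. Rats of the saline group were injected with saline and those of the naloxone group with naloxone, an opioid receptor antagonist, after the last session, and brains were taken 1 h later. Tissue punches of 12 rats, 6 male and 6 female, were pooled into 6 libraries that each held both sexes, 3 of saline (replicates 1, 2 and 3) and 3 of naloxone (replicates 4, 5 and 6). The comparison asks what differed in these astrocytes between naloxone and saline when both groups had taken heroin.

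Astrocytes take up glutamate and GABA released by neurons, buffer potassium and water, couple to each other through gap junctions and supply neurons with glutamine and lactate. In grey matter such as the striatum most are protoplasmic cells with little Gfap, whereas Gfap is abundant in fibrous astrocytes of white matter and in reactive astrocytes. Astrocytes also carry the glucocorticoid receptor Nr3c1, a transcription factor that on binding its hormone induces genes such as Fkbp5, Klf9 and Zbtb16. Heat shock chaperones, a separate system that keeps proteins folded, are switched on by heat shock factors that bind repeated GAA blocks of the heat shock element.

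The 6 libraries gave 412, 815 and 462 members in saline replicates 1, 2 and 3 and 439, 501 and 430 in naloxone replicates 4, 5 and 6. Their UMIs summed to between 1245367 and 2111926 per library, and the median per member was 2736, 2333 and 3470 in the saline libraries and 2614, 2258 and 3628 in the naloxone libraries. No member's barcode was a member in another library. Mitochondrial UMIs were 0.946% of the members' UMIs in naloxone replicate 5, and elsewhere they ranged from 0.246% to 0.560%. Levels below are UMIs per 1000000 UMIs (CPM), where the total is that of all UMIs of the members, or of the other class named, in that library.

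The members carried the markers of astrocytes in every library. Slc1a2, the main glutamate transporter of astrocytes, stood at 6501 ± 435 CPM in the members, 6883 ± 693 in Gfap-positive astrocytes and 179 ± 28.7 in all other kept nuclei (mean ± SD, n = 6 libraries). Aqp4, the water channel of astrocyte endfeet, was at 240 ± 27.1 CPM in the members and 365 ± 63.1 in Gfap-positive astrocytes. Gja1, the gap junction protein connexin 43, was at 438 ± 33.3 and 470 ± 39.9 CPM. The glycine cleavage enzyme Gldc (357 ± 36.7 CPM) and the cystine transporter Slc7a11 (460 ± 144) were likewise far above their 9.95 ± 1.99 and 16.5 ± 2.63 CPM in the other nuclei. At least 1 Slc1a2 UMI was found in 96.0% of members, at a median depth between 2258 and 3628 UMIs, and in 9.05% of oligodendrocytes (at least 3 UMIs of Mog and Opalin), whose median depth was between 1514 and 2442.5 UMIs. Since Aqp4, Gja1 and Acsbg1 are in the rule, their levels describe the choice and support nothing.

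**Figure D1:**
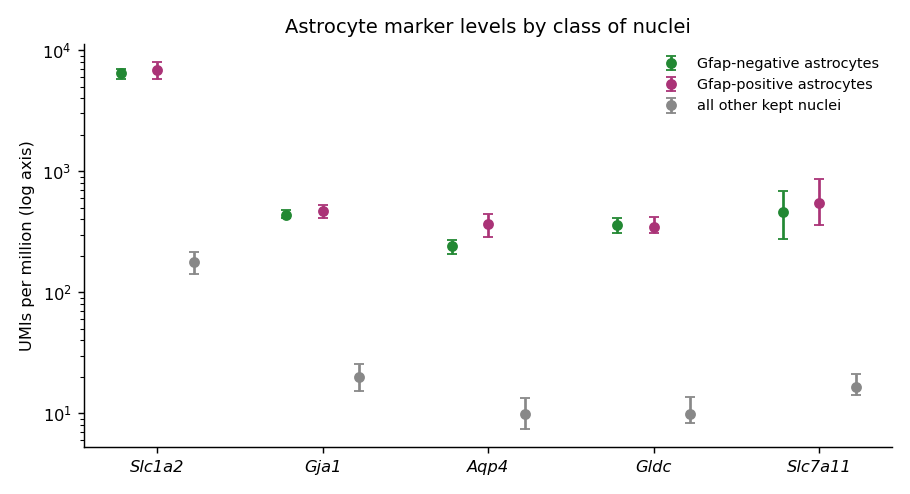
Levels of 5 astrocyte markers in CPM on a log axis, as the mean (point) and range (bar) over 6 libraries for Gfap-negative astrocytes, Gfap-positive astrocytes and all other kept nuclei. The astrocyte classes lie close together, with Aqp4 at 240 against 365, and the other nuclei lie at 179 or below.

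Other genes led the members over the rest of the nuclei as well. The 10 largest log2 ratios were those of Slc1a2 (5.19), Acsbg1, Prodh, Gldc, the aquaglyceroporin Aqp9, Gramd2b, Nwd1, Etnppl, the peptide transporter Slc15a2 and Atp13a4 (4.96). Prodh, the enzyme that starts proline breakdown, stood at 345 ± 51.3 CPM in the members and 9.28 ± 1.78 elsewhere. Of the 7794 genes with at least 20 CPM in either class, 3305 were higher in the members in all 6 libraries and 2335 lower. Besides Mog and Opalin, which the rule sets to 0, the lowest included Gad2 (21.3 ± 6.54 against 352 ± 36.7 CPM), Foxp2 (103 ± 65.7 against 980 ± 39.3) and the dopamine receptor Drd2 (11.1 ± 9.69 against 102.5 ± 14.5), which mark striatal neurons. These ratios follow from how the nuclei were chosen and were not tested.

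Some members also held neuronal RNA. In 243 members (7.94%) Slc1a2 was under 1000 CPM, and these held between 10.1% and 17.4% of the members' UMIs in a library. A list of 15 neuron markers summed to between 5892 and 7645 CPM in them, to between 849 and 1815 CPM in the other members and to 7847 CPM on average in all other kept nuclei. They are called low-Slc1a2 members below, a split made after the data were seen. Over all members the neuron list lay between 1456 and 2480 CPM in saline and between 1616 and 2646 CPM in naloxone libraries, so the groups overlapped. The oligodendrocyte list of 10 genes lay between 373 and 621 CPM, with Mog and Opalin at 0 by the rule, and the precursor list between 53.0 and 84.3, with Pdgfra at 0. The microglia list (Csf1r at 0 by the rule) lay between 20.9 and 51.0 CPM, and the endothelial and ependymal lists at most at 23.7. A list of 7 mural and fibroblast markers was higher in saline (168 to 181 CPM) than in naloxone libraries (130 to 148). Most of that list was the growth factor receptor Pdgfrb, at 123 ± 17.4 CPM in the members, 133 ± 40.1 in Gfap-positive astrocytes and 3.999 ± 0.897 elsewhere, and the pericyte genes Rgs5 and Abcc9 were at 2.26 ± 2.55 and 0.827 ± 1.61 CPM. The part of mural RNA in the comparisons was not tested.

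At the edge of the rule, 560 members had exactly 3 UMIs of the 5 astrocyte genes, and 759 nuclei missed the rule by 1 such UMI. Slc1a2 averaged 3524 ± 859 CPM in the former and 2035 ± 800 in the latter, and the neuron list 3966 and 5536 CPM. On the side of Gfap, 493 of the 757 Gfap-positive astrocytes (65.1%) had a single Gfap UMI. Their Slc1a2 level was 7196 ± 704 CPM and their neuron list 1422 CPM, against 2051 CPM in the members. A nucleus with few UMIs can miss a Gfap transcript that was there: the median was between 2565 and 3799 UMIs in Gfap-positive astrocytes, above that of the members in every library.

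Gfap-positive astrocytes, which differ from the members by the presence of a Gfap UMI, held 606 ± 123 CPM of Gfap. Of 7397 genes with at least 20 CPM in either class, 406 were higher in the members in 6 of 6 libraries and 308 lower, a description with no test since the rule split the classes. The 10 highest log2 ratios over the Gfap-positive class ran from 2.82 to 2.14 and belonged to the muscarinic receptor Chrm2, the cadherin Cdh12, ENSRNOG00000070383, the channel Kcnt2, Egfem1, the glutamate receptor Grm8, Car10, Dscam, the RNA-binding Elavl2 and Hs3st4. After thinning to 1000 UMIs per nucleus, Grm8 and Car10 were higher in the members in 4 of 6 libraries. Without the low-Slc1a2 nuclei the log2 ratio of Hs3st4 was 0.19 and that of Grm8 1.17, each higher in 4 of 6. In the members Cdh12 then went from 129 to 41.8 CPM and Egfem1 from 85.3 to 31.1, each higher in 5 of 6. Dscam went from 141 to 44.5 CPM and stayed higher in 6 of 6. For Chrm2, ENSRNOG00000070383, Kcnt2, Car10 and Elavl2 no value without these nuclei is given here. How much of these ratios came from neuronal RNA was not tested. With the low-Slc1a2 nuclei left out of both classes, 156 of 7246 genes were higher in the members in 6 of 6 libraries and 165 lower. The synaptic genes Syt1 and Snap25, whose log2 ratios were 1.13 and 1.14 over all nuclei, then differed by 0.05 and 0.24. Among genes higher in 6 of 6 libraries in that narrower comparison, Nxph1, a neurexin ligand, was highest (57.6 against 17.5 CPM, log2 ratio 1.76). It was followed by the adhesion molecule Opcml (1.37), Galntl6 (1.36) and Dscam (1.35).

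Other genes were lower in the members. Stk32a, a serine/threonine kinase, was at 26.3 ± 7.96 CPM in the members and 55.3 ± 14.0 in Gfap-positive astrocytes, and it was lower in the members in 6 of 6 libraries both over all nuclei and without the low-Slc1a2 nuclei. Hip1r (28.5 ± 4.54 against 50.1 ± 7.07 CPM), Psmf1 and Pcif1 were also lower in 6 of 6 libraries in both. Of the fibrous and reactive genes, Stat3, the transcription factor of cytokine signalling, was at 64.3 ± 16.3 against 102 ± 31.3 CPM and Agt, the precursor of angiotensin, at 101 ± 39.5 against 150 ± 66.1, lower in the members in 6 of 6 libraries. The matrix protein Tnc was at 17.4 ± 5.36 against 70.0 ± 40.6 CPM and the hyaluronan receptor Cd44 at 10.4 ± 5.14 against 22.7 ± 12.3, each lower in 5 of 6. After each nucleus was thinned to 1000 UMIs, Stk32a, Stat3, Tnc and Aqp4 were lower in the members in 6 of 6 libraries, Agt in 5, and Hip1r and Cd44 in 4. Other genes of the fibrous and reactive list did not keep their direction: Cp, lower in 6 of 6 libraries before thinning, was lower in 2 after it, Id3 went from 5 to 3 and Vim from 4 to 1. The mean log2 ratio of Sparc went from -0.27 to 0.067.

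The share of astrocytes without a Gfap UMI was 77.9%, 85.5% and 80.3% in saline replicates 1, 2 and 3 and 72.6%, 82.1% and 79.0% in naloxone replicates 4, 5 and 6. The groups overlapped, at 81.2% ± 3.90 against 77.9% ± 4.88 (SD, n = 3 each; exact two-sided permutation p = 0.5). Astrocytes made up 6.48% ± 0.266 of kept nuclei in saline and 5.94% ± 0.591 in naloxone libraries (exact permutation p = 0.3, and 0.5 after adjustment over both shares). With 3 libraries against 3 this test cannot go below 0.1. In these sums of nuclei, fewer cells and fewer nuclei recovered from the tissue cannot be told apart. Thinned to 1000 UMIs, which raised the share, it was 92.2% ± 1.63 against 89.1% ± 3.94 (exact permutation p = 0.4).

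Naloxone changed 21 of the 10581 genes tested in the members (0.198%; edgeR's quasi-likelihood test with Benjamini-Hochberg adjustment, threshold 0.05), 19 of them higher and 2 lower. Another measure of the background is that 15.4% of all genes tested had groups that did not overlap, and 1019 genes had an unadjusted p under 0.05. The groups did not overlap for any of the 21. Without saline replicate 1 or saline replicate 2 no gene was called (701 and 922 genes at an unadjusted p under 0.05), without naloxone replicate 5 the count was 6 and without naloxone replicate 6 it was 8, although all 21 kept their direction each time. DESeq2 called 42 genes, which included all 21. Nothing in the labels shows that libraries of a group came from separately handled tissue, so p-values measure the spread between these libraries.

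Among the genes that rose were 4 of the glucocorticoid list. Of its 34 genes, 21 were tested, 4 were higher and none lower, where 0.180% of all genes were called higher. They were Fkbp5, Zbtb16, Klf9 and Pdk4. The median log2 change of the list was 0.36, against -0.01 over all genes tested. Of the 21, 11 were higher in naloxone with no overlap, against 6.38% of all genes. The list was chosen with earlier results of these data known, so its counts are a description. Without saline replicate 1 or 2 none of the list was called, and without naloxone replicate 5 it was 2 genes. Naloxone replicate 5 also had the highest mitochondrial share and the highest neuron list, whose part in these values was not tested.

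Fkbp5, the cochaperone that feeds back on the glucocorticoid receptor, showed the largest increase among the 21 called genes. It was at 23.3, 27.5 and 21.9 CPM in saline replicates 1, 2 and 3 and at 75.3, 258 and 92.4 CPM in naloxone replicates 4, 5 and 6. All naloxone libraries lay above all saline libraries, and naloxone replicate 5 stood far above the other naloxone libraries. The log2 change was 2.53 ± 0.39 (SE), a 5.78-fold rise (edgeR adjusted p = 0.0337). Without naloxone replicate 5 the log2 change was 1.81 and the gene was still called, whereas it was not without saline replicate 1 (edgeR adjusted p = 0.233) or saline replicate 2.

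Klf9, a Krüppel-like transcription factor, was at 81.1, 98.0 and 87.7 CPM in saline and 165, 204 and 171 CPM in naloxone libraries. The naloxone libraries were close to each other and all above the saline libraries, at a log2 change of 1.02 ± 0.13 (edgeR adjusted p = 0.0120). Zbtb16, a zinc finger transcription factor, rose from 140, 189 and 212 CPM to 282, 429 and 395 CPM (log2 change 1.04 ± 0.17, edgeR adjusted p = 0.0365). Pdk4, the kinase that holds back pyruvate dehydrogenase and so spares glucose, rose from 29.7, 18.9 and 27.7 CPM to 61.6, 69.9 and 43.8 CPM (log2 change 1.23 ± 0.22, edgeR adjusted p = 0.0490). In these 3 genes too the groups were separate.

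Other members of the list did not pass the test and are given as values. Errfi1, an inhibitor of EGF receptor signalling, was at 22.9 ± 3.62 CPM in saline and 61.0 ± 29.1 in naloxone (edgeR adjusted p = 0.0802). Tsc22d3, which encodes the glucocorticoid-induced leucine zipper, was at 59.1 ± 19.3 and 122 ± 41.1 CPM, and Nfkbia, the inhibitor of NF-kB, at 5.03 ± 2.84 and 14.8 ± 4.92. Per1, Sgk1, Klf15 and Angptl4, further hormone targets, lay at log2 changes of -0.35, 0.07, 0.08 and -0.11. The receptor genes were not called either: Nr3c1 was at 555 ± 24.4 CPM in saline and 476 ± 52.4 in naloxone (edgeR adjusted p = 0.593), and Nr3c2 lay at a log2 change of 0.01.

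**Figure D2:**
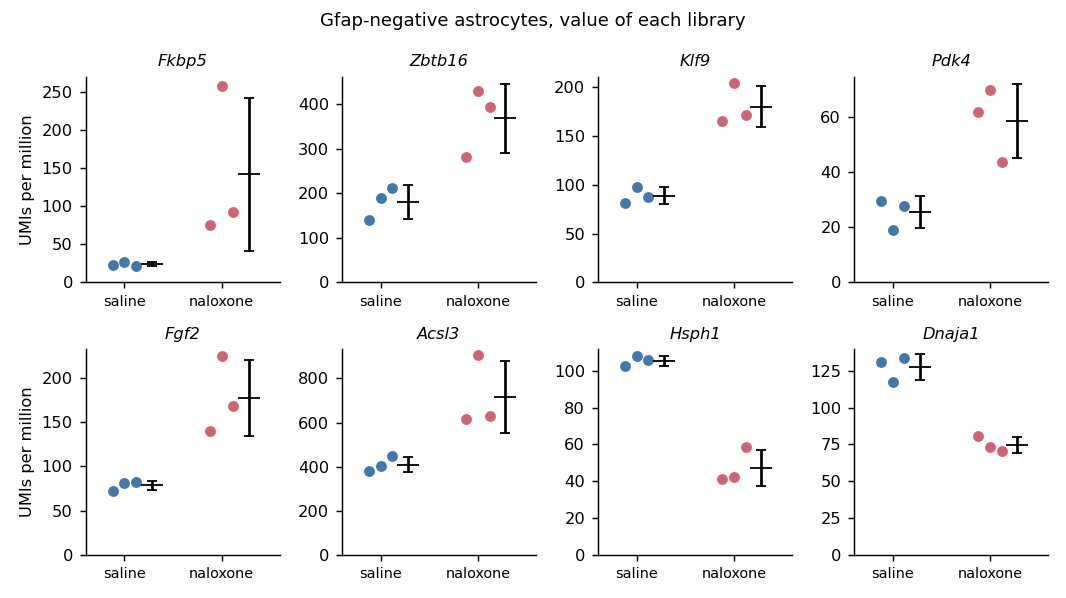
CPM in Gfap-negative astrocytes for 8 called genes, a point per library, with the mean and SD (n = 3) beside each group. The groups are separate in every panel, and naloxone replicate 5 is the highest library for Fkbp5 at 258.

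Beyond that list, Fgf2, a growth factor made by astrocytes, rose from 72.3, 81.0 and 81.9 CPM in saline to 140, 224 and 168 CPM in naloxone libraries (log2 change 1.19 ± 0.16, edgeR adjusted p = 0.0161). Its gene model overlaps Nudt6 in the RefSeq annotation, and whether reads were counted by strand is not given in the sources used here. Acsl3, which activates fatty acids for lipid droplets and membranes, rose from 378, 402 and 448 CPM to 614, 905 and 629 (log2 change 0.82 ± 0.14, edgeR adjusted p = 0.0388). It was the gene called among 26 tested in the lipid and cholesterol list, where 0.198% of all genes were called. LOC102551819 rose likewise (145 ± 20.1 to 251 ± 24.2 CPM), but RefSeq places it inside Acsl3, so that reads of the pair may not be told apart. Mfsd2a, a carrier of lysophospholipids with omega-3 fatty acids, went from 17.7 ± 4.58 to 47.2 ± 11.9 CPM, a log2 change of 1.38.

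The remaining genes that rose included Rin3, an exchange factor for small GTPases of endocytosis (4.08 ± 2.08 to 19.1 ± 5.31 CPM), and Spsb1, an adaptor of ubiquitin ligases (15.9 ± 2.70 to 44.6 ± 12.8). Smim3, a small membrane protein, rose from 16.6 ± 1.66 to 39.9 ± 10.5 CPM. ENSRNOG00000067598, a gene with no symbol in the files, rose from 35.5 ± 5.68 to 95.6 ± 19.2 CPM. Nedd9, Plcd4 and Resp18 were called with log2 changes of 0.85, 0.83 and 1.00. Nedd9, a scaffold of focal adhesions, had 77.4 ± 9.46 CPM in saline and 139 ± 1.90 in naloxone libraries. Several called genes overlap other RefSeq gene models, so that their reads may not be told apart either: Smim3 overlaps Dctn4, Plcd4 overlaps Usp37 and Zfp142, and Mfsd2a, Klf9, Rin3, Spsb1, Zbtb16, Tshz2 and Nedd9 overlap models with LOC names. Csmd2 overlaps Hmgb4 and LOC models. Fkbp5 overlaps a tRNA gene and Dnaja1 a microRNA gene.

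For 4 of the 21 genes most of the UMIs came from low-Slc1a2 members, which held 14.0% of all UMIs of the members. Slc17a8, the vesicular glutamate transporter VGLUT3 of some neurons, was at 3.46 ± 2.18 CPM in saline and 18.2 ± 4.61 in naloxone, and 89.9% of its 99 UMIs lay in low-Slc1a2 members. In the other members it had 6 UMIs in saline and 4 in naloxone libraries. Pde3a, a cyclic nucleotide phosphodiesterase, had 83.0% of its UMIs there, with 16 saline and 16 naloxone UMIs in the other members. The transcription factor Tshz2 (58.4%) and Csmd2 (53.5%) were the others. For the remaining 17 genes the share was between 1.00% and 18.0%.

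**Figure D3:**
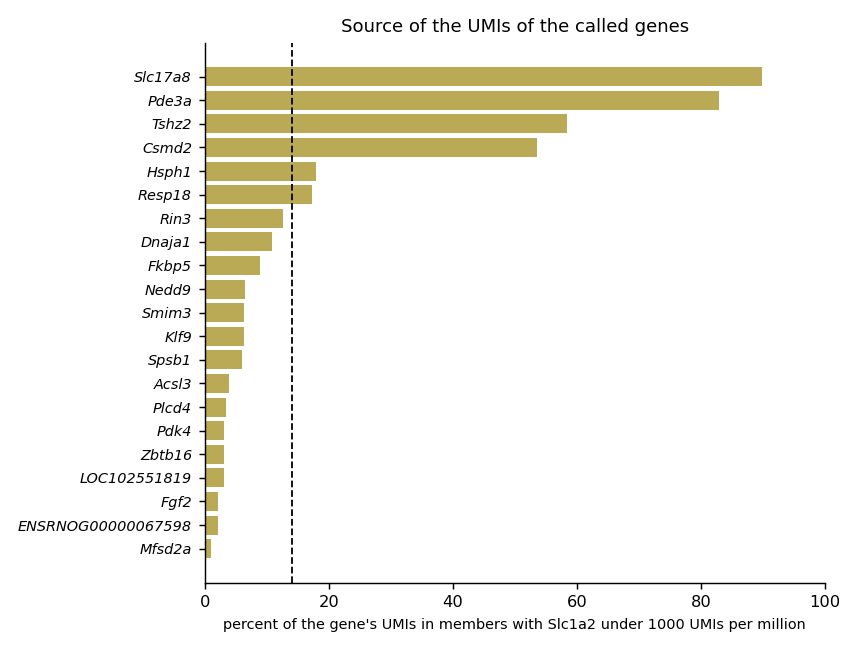
Percent of each called gene's UMIs, summed over 6 libraries, that lay in members with Slc1a2 under 1000 CPM; the dashed line marks the share of all UMIs in those nuclei, 14.0%. Slc17a8, Pde3a, Tshz2 and Csmd2 stand at 53.5% or above, and the other 17 at 18.0% or below.

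When the low-Slc1a2 members were left out, 29 of 10089 genes were called, and 17 of the 21 were among them. Slc17a8 and Pde3a fell under the filter on low counts, and Tshz2 and Csmd2 were not called (edgeR adjusted p = 0.651 and 0.458). Fkbp5 went from 19.8 CPM in saline to 161 CPM in naloxone in these nuclei, a log2 change of 2.98 (edgeR adjusted p = 0.0109). The 12 genes called here and not over all members included the glutamate transporter Slc1a3 (1752 to 2409 CPM, log2 change 0.49, edgeR adjusted p = 0.0329). Lifr, the receptor of leukemia inhibitory factor (68.5 to 128 CPM), Lpin1, Heph, Gpatch4, Camk2g, Pxmp2, Eva1a, Rnf144a and Rin2 were also higher. Ahsa2 and Chordc1, both linked to the chaperone HSP90, were lower.

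Both genes that fell encode heat shock chaperones. Of 39 listed genes 33 were tested, none was higher and 2 were lower, where 0.0189% of all genes were called lower. The median log2 change of the list was -0.36, and 27 of the 33 lay below 0. Of the 33, 17 were lower in naloxone with no overlap, against 9.06% of all genes tested. The list also holds P4ha1, a collagen prolyl hydroxylase. It was chosen with earlier results of these data known, so its counts are a description. With saline replicate 1 or 2 left out, or naloxone replicate 5, none of the list was called, and without saline replicate 3 or naloxone replicate 4 it was 1 gene. With the low-Slc1a2 members left out 3 were called.

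Hsph1, which encodes the HSP110 chaperone that works with HSP70, was at 103, 108 and 106 CPM in saline replicates 1, 2 and 3 and 41.1, 42.3 and 58.4 CPM in naloxone replicates 4, 5 and 6. The saline libraries were nearly alike and all naloxone libraries were far below them. Expression fell by 1.12 ± 0.16 on the log2 scale (edgeR adjusted p = 0.0189), and 18.0% of its UMIs lay in low-Slc1a2 members. Dnaja1, an HSP40 cochaperone that hands clients to HSP70, was at 131, 117 and 134 CPM in saline and 80.6, 73.0 and 70.3 CPM in naloxone libraries. The groups were separate here too, and it fell by 0.75 ± 0.12 (edgeR adjusted p = 0.0365).

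The rest of the list did not pass the test over all members. The HSP90 cochaperone Chordc1 was at 130, 106 and 120 CPM in saline and 49.5, 44.6 and 80.5 in naloxone (edgeR adjusted p = 0.0790). Stip1, which links HSP70 to HSP90, was at 74.6 ± 2.74 and 43.5 ± 14.5 CPM, and the inducible HSP90 gene Hsp90aa1 at 120 ± 2.44 and 85.5 ± 8.45. P4ha1, a collagen prolyl hydroxylase, was at 246 ± 23.5 and 159 ± 31.3 CPM. In each of these the groups did not overlap. The endoplasmic reticulum chaperones Hspa5 and Hsp90b1, the cochaperone Bag3 and the heat shock factor Hsf1 itself lay at log2 changes of -0.17, -0.16, 0.31 and -0.12, with overlapping groups.

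**Figure D4:**
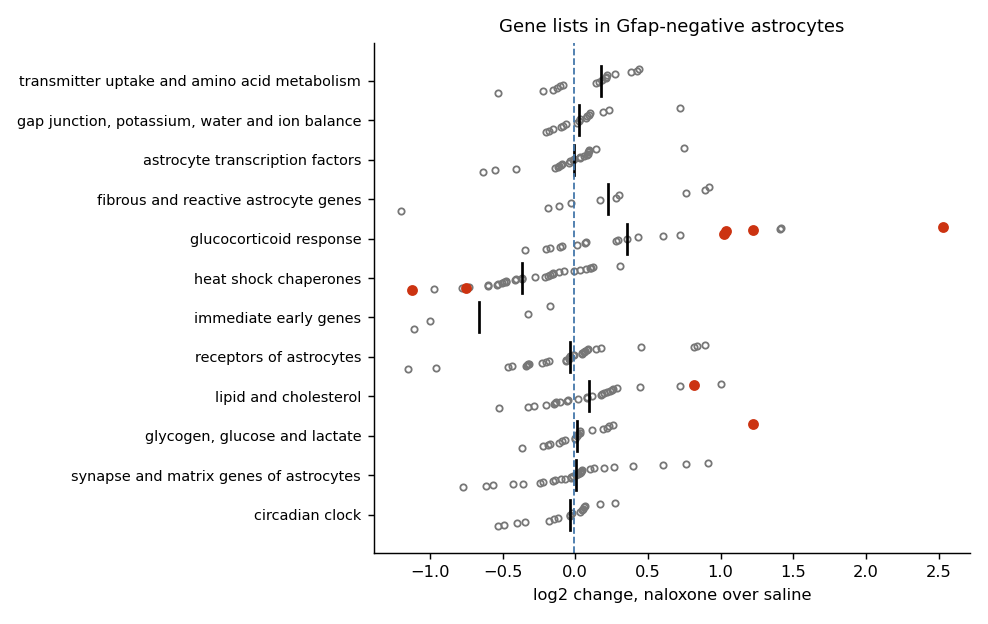
Log2 change with naloxone of every tested gene of 12 lists in Gfap-negative astrocytes (circles; filled where edgeR's adjusted p was under 0.05), with each list's median (black bar) and the median of all genes tested (dashed line, -0.01). Filled circles stand in the glucocorticoid (4), heat shock (2), lipid (Acsl3) and glucose (Pdk4) lists.

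Promoter windows of RefSeq (GRCr8), from 250 bases before to 50 after the gene start, were searched on both strands for the heat shock element, the blocks GAA, TTC and GAA in this order with any 2 bases between neighbours. It was found in 7 of the 28 tested genes of the list that had a window (25.0%), against 0.736% of 27457 windows in all and 0.469% of the 8324 windows of tested genes. The 7 were Hsph1, Dnaja1, Chordc1, Hspa8, Hspd1, Hspe1 and Cct4, and the windows of Hspd1 and Hspe1 share their matches because they overlap by 211 bases. The sequences of the called genes and of Chordc1 are shown because they hold matches, in capitals. For Hsph1 the 250 bases before the start are given (chr12:10427118-10427367, plus strand), in which the match begins 36 bases before the start.
Hsph1: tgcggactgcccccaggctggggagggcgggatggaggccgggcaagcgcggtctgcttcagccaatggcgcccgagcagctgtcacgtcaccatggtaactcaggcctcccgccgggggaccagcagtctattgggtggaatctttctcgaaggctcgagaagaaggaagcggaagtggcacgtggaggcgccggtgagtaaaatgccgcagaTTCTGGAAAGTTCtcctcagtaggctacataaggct
In Dnaja1 the match begins 9 bases after the start (chr5:60638413-60638425, plus strand), and in Chordc1 the first of 3 overlapping matches begins 10 bases after it (chr8:23650831-23650853, plus strand).
Dnaja1: GAACTTTCCAGAA
Chordc1: GAACGTTCGGGAAGATTCCTGAA
The glucocorticoid element (G, any base, ACA, any 3 bases, TGT, any base, C) was searched in the same way. It was in none of 18 windows of the glucocorticoid list, 0.422% of all windows and 0.228% of the windows of tested genes. At these shares a count of 0 in 18 windows is not read as a result. A match is a description of these letters and not a binding site, and these windows are in another build than the counts.

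Genes for transmitter uptake and amino acid metabolism had a median log2 change of 0.17, against -0.0059 over all genes tested. None of the 16 tested was called; with 0.198% of all genes called, that count is not read as a result. Of the 16, 4 had an unadjusted p under 0.05 and a higher value in naloxone libraries and 2 a lower one (all genes 1019 of 10581). In 5 of them the groups did not overlap, 4 higher and 1 lower (15.4% of all genes, 6.38% higher). Slc1a3 was at 1518, 1529 and 1625 CPM in saline and 1952, 2102 and 2209 in naloxone libraries (edgeR adjusted p = 0.105), and it passed the test without the low-Slc1a2 members. Slc1a2 itself lay at a log2 change of 0.17 and the glutamine synthetase gene Glul at 0.27. The 2 lower genes were Slc7a11, at -0.53 with overlapping groups, and Gldc, at -0.22 with groups that did not overlap. None of the 16 tested genes for gap junctions, potassium, water and ion balance was called, and Gja1, Aqp4 and Kcnj10 (the potassium channel Kir4.1) lay at log2 changes of 0.07, -0.15 and -0.18.

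None of 22 astrocyte transcription factors was called, with Sox9 at a log2 change of -0.10 and Nfia at 0.14. At 0.198% of all genes called, a count of 0 in this list, the ion balance list or those that follow is not read as a result. In 4 of the 22 the groups did not overlap (15.4% of all genes), though none of these passed edgeR's test. Sox2 was at 113 ± 6.21 CPM in saline and 83.9 ± 8.44 in naloxone libraries (log2 change -0.41), Lhx2 at 44.6 ± 8.88 and 28.9 ± 6.51 (-0.64), and Zfp36l1 at 65.2 ± 2.24 and 43.8 ± 18.9 (-0.55). Id2 was at 29.7, 22.7 and 32.9 CPM in saline and 39.6, 66.1 and 36.8 in naloxone libraries (log2 change 0.75), but its log2 change was -0.074 in male nuclei alone. Of 38 listed receptors 33 were tested and none was called. Adora1, the adenosine A1 receptor, was at 35.3 ± 3.07 CPM in saline and 61.9 ± 14.1 in naloxone (edgeR adjusted p = 0.123), and the metabotropic glutamate receptor Grm3 at 2458 ± 56.5 and 1942 ± 217 (edgeR adjusted p = 0.320). The mu opioid receptor Oprm1, the main target of naloxone, was at 9.08 ± 5.64 and 16.6 ± 4.48 CPM, with overlapping groups. An Oprm1 UMI was found in 2.39% of members, 2.22% of oligodendrocytes and 21.98% of all other kept nuclei (means over libraries). These low values do not show that the astrocytes carry the receptor, and where the UMIs came from was not tested. Only 10 of 25 fibrous and reactive genes were tested and none was called. Fabp7, a fatty acid binding protein, was at 36.4 ± 11.8 and 15.1 ± 8.40 CPM, and Sparc at 103 ± 9.16 and 173 ± 49.8.

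Most immediate early genes were close to the limit of detection, and only 4 of 30 were tested, with Jun at 17.0 ± 6.26 CPM in saline and 8.03 ± 1.40 in naloxone. Homer1 averaged 87.8 ± 8.73 CPM over the 6 libraries. All 4 were lower in naloxone, at a median log2 change of -0.67, and 2 had an unadjusted p under 0.05. In 2 of the 4 the groups did not overlap, where 9.06% of all genes tested were lower with no overlap. So short a list is given as a description. None of the immediate early genes, of 29 synapse and matrix genes or of 17 clock genes was called. In the synapse and matrix list Il33, a cytokine of astrocytes, was at 23.3 ± 3.62 and 43.3 ± 10.3 CPM and the phagocytic receptor Mertk at 570 ± 67.8 and 856 ± 210. Pdk4 was the gene called among 20 of the glycogen, glucose and lactate list, beside 0.198% of all genes; 1 call in a list of this size is given as a description.

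Whether the naloxone change differed between the members and Gfap-positive astrocytes of the same libraries was tested with library as a block. No gene of 9697 passed (edgeR, 515 at an unadjusted p under 0.05, percentage called 0), and DESeq2 also called 0. When simulated counts held a log2 difference of 1 in 200 genes, this test found 64 of them (32%). The count of 0 therefore does not show that the changes were alike. Side by side, Fkbp5 went from 24.2 ± 2.88 to 142 ± 101 CPM in the members and from 24.3 ± 3.28 to 128 ± 83.3 CPM in Gfap-positive astrocytes. Klf9 stood at 92.3 ± 5.55 and 186 ± 46.1 CPM and Hsph1 at 100 ± 7.59 and 44.1 ± 7.09 CPM in the latter. The log2 difference, members minus Gfap-positive, was 0.12 ± 0.32 (SE) for Fkbp5, 0.02 ± 0.21 for Klf9 and 0.003 ± 0.27 for Hsph1. The count was not stable, since without saline replicate 3 it was 39, without naloxone replicate 5 it was 25 and without naloxone replicate 4 it was 6.

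Against all other kept nuclei, most of them neurons and oligodendrocytes, the naloxone change differed for 5 of 16748 genes (0.0299%; edgeR with library as a block, 949 at an unadjusted p under 0.05), a comparison added after the data were seen. Fkbp5 rose from 38.9 ± 0.235 to 67.3 ± 17.2 CPM in the other nuclei, and the log2 difference from the members was 1.64 ± 0.24 (edgeR adjusted p = 0.0112). An Fkbp5 UMI was found in 5.10%, 5.77% and 7.36% of members in saline and 14.4%, 38.3% and 22.3% in naloxone libraries. In oligodendrocytes, which are among the other nuclei, it was found in 8.54%, 7.11% and 9.64% and in 19.0%, 34.8% and 24.7%. The Fkbp5 change in members against that in oligodendrocytes alone was not tested. LOC102551819 was at 26.8 ± 1.55 and 27.4 ± 1.63 CPM in all other kept nuclei (difference 0.78 ± 0.13, edgeR adjusted p = 0.0326). A630010A05Rikl, a predicted gene model that overlaps a pseudogene, was at 72.8 ± 12.2 CPM in saline and 43.9 ± 4.69 in naloxone in the other nuclei, but at 13.3 ± 3.20 and 84.0 ± 62.1 in the members (difference 3.31 ± 0.48, edgeR adjusted p = 0.0112; 0.944 with DESeq2). Without the low-Slc1a2 members it was at 108 and 144 CPM in naloxone replicates 4 and 6 but at 4.65 in naloxone replicate 5, within the range of the saline libraries. Slc17a8 (difference 2.17 ± 0.38) and Pde3a (1.56 ± 0.26) were the others, and without low-Slc1a2 members their differences were -0.72 and 0.05 with edgeR adjusted p = 0.963 and 1. Without saline replicate 1 no gene was called (713 at an unadjusted p under 0.05), without naloxone replicate 6 it was 2, and without saline replicate 3 it was 80, while without saline replicate 2 or naloxone replicates 4 and 5 it was 8, 9 and 12.

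For other genes called in the members the difference did not pass the test, which does not show that the changes were alike. Zbtb16 was at 51.5 ± 14.1 and 110 ± 26.4 CPM there, and the log2 difference was -0.04 ± 0.14 (edgeR adjusted p = 0.995). Pdk4 was at 4.02 ± 0.455 and 9.35 ± 1.75 CPM, with a difference of 0.01 ± 0.23. Acsl3 was at 103 ± 7.54 and 106 ± 6.97 CPM, and its difference of 0.77 ± 0.14 missed the threshold (edgeR adjusted p = 0.0504). Hsph1 was at 132 ± 2.00 and 78.7 ± 10.4 CPM, with a difference of -0.40 ± 0.14 that did not pass (edgeR adjusted p = 0.684).

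**Figure D5:**
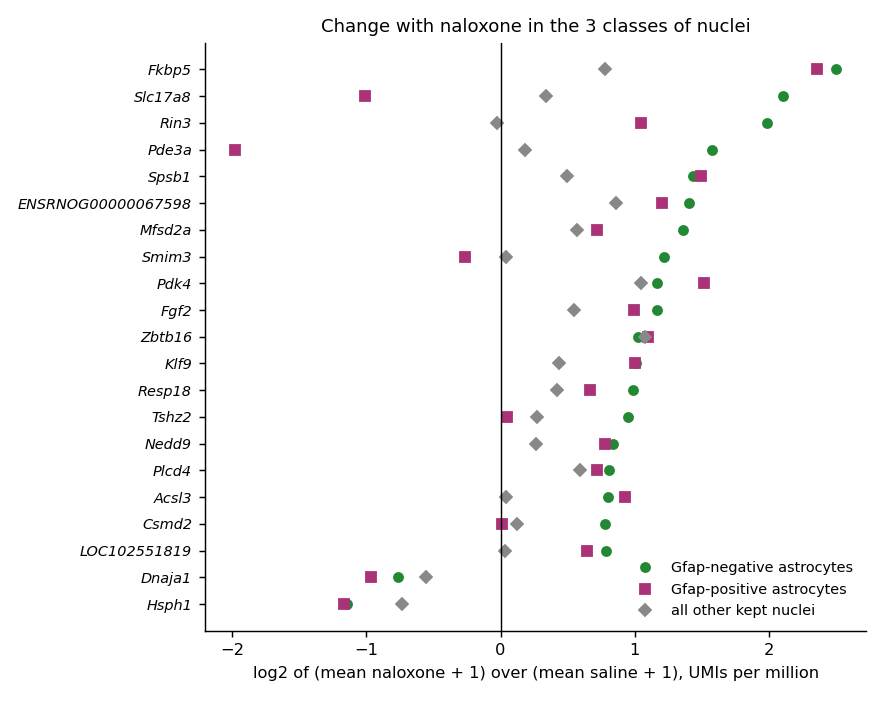
Change with naloxone of the 21 genes called in Gfap-negative astrocytes, as the log2 ratio of the group means plus 1 CPM, in Gfap-negative astrocytes, Gfap-positive astrocytes and all other kept nuclei of the same libraries. Fkbp5 stands at 2.50, 2.36 and 0.78, Acsl3 at 0.80, 0.93 and 0.04, and Zbtb16 at 1.02, 1.10 and 1.08.

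Because each library pooled both sexes, nuclei were also split by sex, female by an Xist UMI and male by a UMI of Ddx3y, Uty, Kdm5d, Eif2s3y or Usp9y. There were 1334 female and 865 male members, 128 carried both kinds of UMI and 732 neither. Male against female members, 6 of 7640 genes were called (0.0785%; edgeR with library as a block, 401 at an unadjusted p under 0.05). They were Xist and ENSRNOG00000065796, lower in male nuclei, and Eif2s3y, Kdm5d, Ddx3y and Uty, higher, and all but ENSRNOG00000065796 had served for the split. ENSRNOG00000065796, which has no symbol in the files, was at 445 ± 61.3 CPM in female and 9.59 ± 8.43 in male members. No gene of 8554 passed for a naloxone change that differed between the sexes (edgeR, 314 at an unadjusted p under 0.05, percentage called 0). DESeq2 also called 0. When simulated counts held a log2 difference of 1 in 200 genes, this test found 16 of them (8%). It could thus miss most differences of that size, and the count of 0 does not show that the sexes were alike. Fkbp5 went from 19.8 ± 10.4 to 103 ± 74.7 CPM in female and from 34.2 ± 2.96 to 167 ± 169 CPM in male members. Within each sex its groups overlapped.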

How the data were processed

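Nuclei of 6 nucleus accumbens libraries were analysed from the UMI counts per gene and barcode that the authors deposited, made with Cell Ranger 9.0.1 per the file headers, with mRatBN7.2 as the build per the submitters' processing notes. The labels state 44592 nuclei; the deposited files hold 64260 barcodes, of which 61609 had at least 500 genes and at most 5% mitochondrial UMIs. The ependymal gene Ccdc153 in the rule was not matched. No doublet caller was run, and leaving out nuclei with both Xist and Y-linked UMIs was an alternative. Library totals ranged from 55739350 to 76272798 UMIs.

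UMIs of the members were summed per library and tested with edgeR 4.0.16 (TMM factors, filterByExpr, quasi-likelihood test, Benjamini-Hochberg threshold 0.05) in R 4.3.3, with DESeq2 1.42.0 as an alternative. SE is the log2 change over the square root of F. Differences between classes or sexes were fitted with library as a block. Scripts were tested on simulated data. Shares were compared by exact permutation (scipy 1.17.1). Called genes were named by a rule: the 12 largest increases and 8 largest decreases with a mean of at least 10 CPM and groups that did not overlap, and called genes of the lists; others called were named after their values were seen. Descriptions name the 10 largest ratios each way with at least 20 CPM and 1 direction in 6 of 6 libraries. The members and lists were chosen with earlier results of these data known. The alternatives were other factors, no filter, each library left out, at least 1000 genes or 5 astrocyte UMIs, no Gad1 or Gad2 UMI and each sex alone; the limit of 1000 CPM on Slc1a2 and the comparison with all other nuclei were chosen after seeing the data.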

Additional observations from a re-analysis of the deposited data

Results flagged for a closer look

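The naloxone change in Gfap-negative astrocytes differed from that in all other kept nuclei for 5 genes, by the edgeR test of the difference itself with library as a block. The log2 difference was 3.31 for A630010A05Rikl, 2.17 for Slc17a8, 1.64 for Fkbp5, 1.56 for Pde3a and 0.78 for LOC102551819. Without saline replicate 1 none of the 5 passed. Without naloxone replicate 6, Fkbp5 passed and the other genes did not. The Fkbp5 change was not tested against that in oligodendrocytes alone, in which detection of Fkbp5 was also higher in naloxone libraries. In 17 of the 21 genes called in the members alone, at most 18.0% of UMIs lay in members with Slc1a2 under 1000 CPM, whereas for Slc17a8 and Pde3a it was 89.9% and 83.0%. Without those members the differences of Slc17a8 and Pde3a were -0.72 and 0.05 and did not pass. A630010A05Rikl did not pass with DESeq2 (adjusted p = 0.944). Without those members it was at 4.65 CPM in naloxone replicate 5, within the range of the saline libraries.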

How the results depend on the processing

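No paired analysis was possible because the replicate numbers 1 to 6 are not shared between the groups. The count of genes changed by naloxone (21) was 42 with DESeq2, 246 with no filter on low counts, 80 with no Gad1 or Gad2 UMI, 0 in female and 1 in male nuclei alone, and between 0 and 31 with 1 library left out. For the glucocorticoid list (4) it was 8 with no filter, 0 in either sex alone and between 0 and 4 with 1 library left out. For the heat shock list (2) it was 6 with no filter, 1 with at least 1000 detected genes, 4 with no Gad1 or Gad2 UMI, 0 in either sex alone and between 0 and 2 with 1 library left out. For the difference from Gfap-positive astrocytes (0) it was 46 with no filter, 66 with no Gad1 or Gad2 UMI, 3 with Slc1a2 at least 1000 CPM and between 0 and 39 with 1 library left out. For the difference from all other nuclei (5) it was 78 with no filter, 8 without nuclei that had Xist together with Y-linked UMIs, 22 with at least 5 astrocyte UMIs, 39 with no Gad1 or Gad2 UMI, 8 with Slc1a2 at least 1000 CPM and between 0 and 80 with 1 library left out. For male against female nuclei (6) it was 82 with no filter, 12 with no Gad1 or Gad2 UMI and between 6 and 7 with 1 library left out. For sex by treatment (0) it was 15 with no filter, 1 with Slc1a2 at least 1000 CPM and between 0 and 2 with 1 library left out. The log2 change of Id2 was -0.074 in male nuclei alone, against 0.75 in all members, and the Slc17a8 difference from the other nuclei was -0.72 with Slc1a2 at least 1000 CPM. The 21 called genes kept their direction wherever they were tested, and the causes of the moved counts were not tested. Shares kept their direction under the alternatives run. Intervals and tests of 3 libraries against 3 limit what could be detected, and the members' UMIs, at most 2111926 per library, limit low genes such as most immediate early genes.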
